A study of Mus musculus with 8 samples.

Results

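Open chromatin was compared between wild-type (WT) and Nfat5 knockout (KO) macrophages after lipopolysaccharide (LPS). The 4 libraries compared were 2 of WT and 2 of KO cells, out of 8 in the study; the other 4 were the same genotypes left untreated. Peaks of the 8 deposited lists were merged into 87260 regions, of which 72316 were called in at least 1 LPS library. A region called in both WT LPS lists and in neither KO LPS list was termed WT-only, and the reverse KO-only. There were 2763 WT-only regions (3.82% of the 72316) and 1771 KO-only regions (2.45%), and 40095 regions were called in all 4 LPS lists, where peak widths could be compared.

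The cells were bone marrow-derived macrophages of mice. Marrow cells of WT or NFAT5-deficient animals were grown for 7 days in medium containing 25% of an L929 fibroblast supernatant, which supplies the macrophage growth factor M-CSF. LPS from E. coli was given at 0.3 ng/ml for 2 h. The assay was ATAC-seq, in which a transposase cuts accessible chromatin. The design text calls the 2 libraries of a group biological replicates; whether they came from separate mice, which part of Nfat5 was deleted, and by which Cre or other tool, the labels do not state, nor do they state the age or strain of the mice. In a culture of many cells, fewer cells with an open site and less opening per cell cannot be told apart.

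NFAT5, also called TonEBP, is a transcription factor of the Rel family, which also holds NF-kB and the calcineurin-dependent NFAT proteins. It is best known for inducing osmolyte transporters and chaperones when cells meet high salt. In macrophages it is also activated downstream of Toll-like receptors, and it has been linked to inflammatory cytokine genes and to Ciita, the master regulator of MHC class II. ATAC peaks mark promoters and enhancers, and a wider peak can reflect a broader open stretch or a stronger signal.

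The start sites of 3 genes from the gene lists described below lay in WT-only regions, and their upstream sequences are shown first because each is a promoter that was called in both WT and neither KO library after LPS. The upstream stretches of Cfap45 (WT-only) and Cul7 (KO-only) are shown as examples from among the wider regions at a start site whose stretch holds the NFAT core TGGAAA. They are RefSeq sequence of build GRCm38.p6, the 250 bases before the annotated start, read 5′ to 3′ on the gene's strand. Capitals mark a match to any of the 5 motifs searched on both strands: TGGAAA (NFAT family core), GGG and TTCC with any 3 bases between them (NF-kB), TGANTCA (AP-1), GAGGAAGT (PU.1) and GAAA repeated with any 2 bases between (interferon response).
Slc6a12, chr6:121343006-121343255, plus strand: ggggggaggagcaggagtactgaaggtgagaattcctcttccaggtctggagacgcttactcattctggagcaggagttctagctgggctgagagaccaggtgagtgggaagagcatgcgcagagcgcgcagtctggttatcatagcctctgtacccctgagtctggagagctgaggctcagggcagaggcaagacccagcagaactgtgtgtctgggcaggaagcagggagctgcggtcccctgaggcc
Bcl3, chr7:19822756-19823005, minus strand: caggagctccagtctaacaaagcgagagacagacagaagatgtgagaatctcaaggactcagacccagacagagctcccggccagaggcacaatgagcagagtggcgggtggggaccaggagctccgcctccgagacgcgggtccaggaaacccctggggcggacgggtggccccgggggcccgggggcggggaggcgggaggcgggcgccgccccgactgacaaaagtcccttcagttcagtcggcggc
Myd88, chr9:119340019-119340268, minus strand: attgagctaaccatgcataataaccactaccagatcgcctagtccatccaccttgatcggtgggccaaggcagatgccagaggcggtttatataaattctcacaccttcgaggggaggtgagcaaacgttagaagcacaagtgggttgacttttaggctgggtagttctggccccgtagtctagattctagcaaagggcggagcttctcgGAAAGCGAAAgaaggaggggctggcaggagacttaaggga
Cfap45, chr1:172520880-172521129, plus strand: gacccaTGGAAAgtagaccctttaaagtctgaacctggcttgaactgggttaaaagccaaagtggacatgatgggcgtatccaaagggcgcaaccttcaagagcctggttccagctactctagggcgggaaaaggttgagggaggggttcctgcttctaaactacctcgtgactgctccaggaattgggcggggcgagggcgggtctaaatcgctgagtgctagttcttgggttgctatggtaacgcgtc
Cul7, chr17:46650088-46650337, plus strand: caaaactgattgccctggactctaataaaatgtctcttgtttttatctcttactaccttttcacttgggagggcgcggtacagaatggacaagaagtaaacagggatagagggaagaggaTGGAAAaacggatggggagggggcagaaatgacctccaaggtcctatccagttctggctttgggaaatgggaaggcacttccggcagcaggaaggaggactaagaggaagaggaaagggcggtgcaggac

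The Slc6a12 region (chr6:121343196-121343435) covers 60 of the bases shown. Slc6a12 encodes the betaine transporter BGT1, an osmolyte carrier and a textbook NFAT5 target. The region held peaks of 232 and 225 bases in the WT LPS lists and none in the KO LPS lists. The untreated lists, which played no part in choosing it, showed the same split, with 210 and 239 bases in WT and no peak in either KO library. All 4 WT libraries thus called this promoter and none of the 4 KO libraries did. None of the 5 motifs occurs in the printed stretch.

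The Bcl3 region (chr7:19822695-19823009), at the start of the gene for a nuclear NF-kB cofactor, had 315 and 279 bases in WT LPS and none in KO LPS. Among untreated libraries only WT replicate 2 called it, with 187 bases. The Myd88 region (chr9:119339692-119340303), at the start of the gene for the central Toll-like receptor adaptor, had 428 and 498 bases in WT LPS; 3 of 4 untreated libraries called it, with 308, 393 and 422 bases, the last in KO replicate 1. Its printed stretch holds the interferon-response pattern beginning 40 bases before the start. Cfap45, a gene of cilia and flagella, had 391 and 515 bases in WT LPS and holds the NFAT core 244 bases before its start. Cul7, a cullin of ubiquitin ligases, had 417 and 331 bases in KO LPS, none in WT LPS, and a peak in all 4 untreated libraries; the core lies 130 bases before its start.

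Motifs were counted over all such windows (250 bases before to 50 after a start). The NFAT core occurred in 34 of 212 windows touched by WT-only regions (16.0%), in 5 of 50 touched by KO-only regions (10%), in 16.3% of the 11340 windows touched by regions called in all 4 LPS libraries, and in 21.4% of all 32851 windows. The NF-kB pattern was in 4.25%, 0%, 6.67% and 5.56% of the same sets, and the interferon pattern in 1.89%, 2%, 3.32% and 3.44%. AP-1 was in 5.66%, 6%, 4.92% and 7.81%, and PU.1 in 2.83%, 6%, 3.57% and 3.20%. A match is a string of letters and not a binding site, and windows of one gene can overlap.

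The LPS lists of the genotypes were of similar size. WT LPS libraries held 57691 and 55506 peaks and KO LPS libraries 54911 and 54027, so both WT lists were longer than both KO lists. The WT lists covered 28.0 and 27.7 Mb and the KO lists 27.1 and 26.2 Mb. With 2 libraries against 2 the smallest p of an exact permutation test is 0.333, and that was its two-sided value for both measures. The median peak was 402 and 415 bases wide in WT and 410 and 403 in KO, where the groups overlap. The narrowest peak was 156 bases in both WT LPS lists and 167 in both KO LPS lists, which touches the counts below. Of the 6 regions assigned to Nfat5 none was WT-only or KO-only, and its start-site region (chr8:107292751-107293816) had 486 and 746 bases in WT LPS and 454 and 551 in KO LPS; with the deleted part unknown, this does not check the genotype. Within 100 kb of Nfat5, a WT-only region assigned to Wwp2, a ubiquitin ligase gene (chr8:107449294-107449951), had 377 and 520 bases in WT LPS, 620 and 632 in untreated WT and no peak in the 4 KO libraries.

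Regions called in exactly 2 of the 4 LPS libraries numbered 8814. Of these 31.3% were WT-only, 20.1% KO-only, and 48.6% had 1 WT and 1 KO call. WT-only and KO-only regions were narrow. Their median widths were 245 and 238 bases in the 2 WT LPS libraries and 262 and 246 in the 2 KO LPS libraries, against 490 to 516 for regions called in all 4.  In 489 WT-only regions (17.7%) at least 1 WT peak was narrower than the narrowest KO LPS peak. Without peaks under 174 bases in any list, an alternative chosen after the data were seen, the counts were 2272 WT-only and 2009 KO-only, so part of the excess of WT-only regions went with the narrowest peaks. With all 8 lists shortened to an equal length of 54027 peaks by width, the counts were 2226 WT-only and 2104 KO-only. With a KO library left out, so that KO-only rests on 1 list, KO-only regions became the more numerous, 5383 against 5250 without KO replicate 1 and 5716 against 4841 without KO replicate 2.

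WT-only and KO-only regions differed in the state they had before LPS. Of the WT-only regions, 998 (36.1%, 95% exact interval 34.3 to 37.9) were called in no untreated library, so they were called only after LPS. Of the KO-only regions, 209 (11.8%, 10.3 to 13.4) were. Conversely 683 KO-only regions (38.6%) were called in all 4 untreated libraries, against 453 WT-only regions (16.4%). These KO-only regions are sites seen before LPS in both genotypes and no longer called in WT after LPS. Regions with 1 WT and 1 KO call lay between, at 21.5% and 25.4%. Intervals cover counting error over regions only, and regions of one library are not independent.

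This contrast has a limit in its libraries. Leaving out a KO LPS library makes KO-only rest on a single list, and the share called in no untreated library was then 33.3% without KO replicate 1 and 37.4% without KO replicate 2, above the 28.1% and 26.4% of WT-only regions. With 1 WT library set against 1 KO library at a time, so that both directions rest on 1 list each, regions called in WT alone were in no untreated list in 39.5%, 39.7%, 34.2% and 35.1% of cases over the 4 pairs. Regions called in KO alone were so in 30.0%, 26.3%, 30.0% and 26.8%. The WT value was the higher in all 4 pairs, which share libraries.

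The untreated libraries were not used to choose the regions. WT-only regions were called in 44.7% and 48.2% of cases by the untreated WT libraries and in 31.5% and 35.2% by the untreated KO libraries. The groups did not overlap, and the difference of KO minus WT means was -13.1 percentage points (46.5% ± 2.51 against 33.4% ± 2.64, SD, n = 2 each; exact permutation p = 0.333, the smallest possible). KO-only regions were called in 60.5% and 60.2% by untreated WT and in 69.1% and 73.5% by untreated KO libraries, a difference of 10.9 points the other way (exact permutation p = 0.333). The latter was 5.62 points without KO LPS replicate 1 and 5.42 without KO LPS replicate 2. Regions with 1 WT and 1 KO call gave 55.5% and 53.6% against 49.6% and 52.0%. The genotype difference in calls thus recurred in untreated cells for part of the regions. Each library code in the titles occurs in 1 untreated and 1 LPS library, so these may share a mouse or culture, and differences between mice cannot be told apart from genotype here.

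The same is seen region by region. Of the WT-only regions, 202 (7.31%) were called in both untreated WT and neither untreated KO library, and 27 (0.977%) showed the reverse. Of the KO-only regions, 128 (7.23%) were called in both untreated KO and neither untreated WT library and 21 (1.19%) the reverse. Among regions called in any LPS library these patterns made up 1.80% and 1.15%. Among regions with 1 WT and 1 KO call, also found in 2 LPS libraries, they made up 3.95% and 2.41%. Of the 72 WT-only regions of list genes 5 are among the 202, at Slc6a12, Zfp36l1, C1qb, Cd209a and Gata2, and 0 of the 30 KO-only regions of list genes are among the 128.

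**Figure D1:**
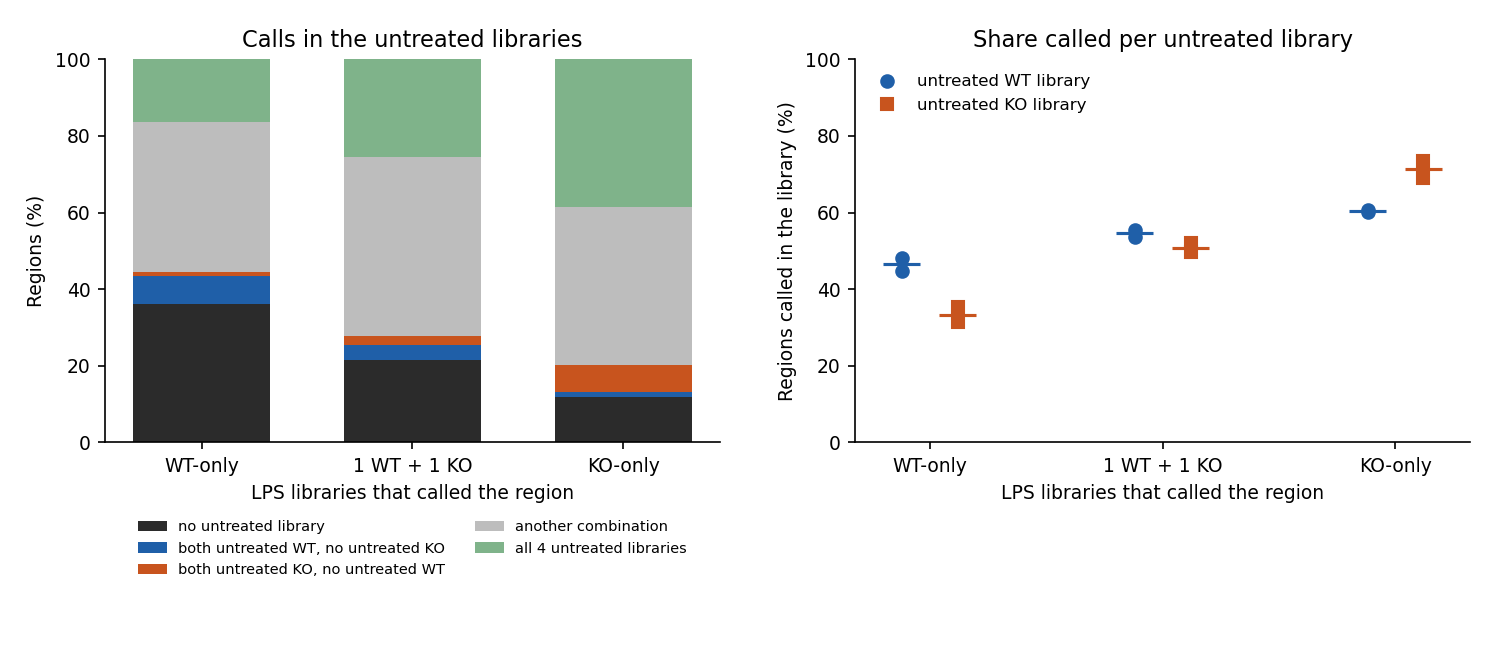
Left, share of regions (%) by the untreated libraries that called them, for regions called in both WT and no KO, in 1 WT and 1 KO, or in both KO and no WT LPS library. Right, share of each set (%) called by each untreated library, points for libraries and lines for means of 2; WT points lie above KO points for WT-only regions (46.5% against 33.4%) and below them for KO-only regions (60.4% against 71.3%).

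The regions also differed in where they lay. WT-only regions were within 1 kb of an annotated start site in 10.6% of cases and KO-only regions in 5.29%, against 11915 of the 69945 regions called with LPS. KO-only regions were over 100 kb from any protein-coding gene in 18.7%, WT-only regions in 7.70% and all LPS regions in 9.03%. Regions with 1 WT and 1 KO call gave 7.24% and 10.4%. In the 4 pairs of single libraries, 8.81% to 9.83% of regions called in WT alone and 4.97% to 6.05% of those called in KO alone were near a start, and 8.37% to 9.23% and 15.8% to 17.3% were over 100 kb from a gene. Inside genes lay 48.0% of WT-only and 45.9% of KO-only regions. WT-only regions outnumbered KO-only regions on each of the 21 chromosomes, from 54.2% of both kinds on X to 71.0% on chromosome 11. On Y the counts were only 2 and 1. The count by chromosome was not repeated with lists of equal length, where the totals were 2226 and 2104.

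Genes of the LPS response came next. Each region was given to the nearest protein-coding gene within 100 kb, and 17 gene lists were read beside the background of 3.82% WT-only and 2.45% KO-only. Of 267 regions of 40 early LPS response genes, 14 were WT-only (5.24%) and 5 KO-only (1.87%). Of 142 regions of late response genes, 8 were WT-only (5.63%) and 3 KO-only (2.11%). The 95% exact intervals of these shares, 2.90% to 8.64% and 2.46% to 10.8% for WT-only, include the background. Of the WT-only regions, 9 of the 14 early and 7 of the 8 late ones were called in no untreated library, against 36.1% of all WT-only regions. The counts are small, and the lists hold genes chosen for their response to LPS.

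The early genes with WT-only regions were Atf3, Bcl3, Il10, Il1b, Il6, Nfkb1, Nfkbiz, Tnf and Tnfaip3. Il10, Nfkb1 and Nfkbiz also had KO-only regions. Upstream of Il6, which encodes interleukin-6, a region 92.6 kb from the gene (chr5:29920114-29920522) held 409 and 304 bases in WT LPS and no peak in KO LPS or in any untreated library. A region 2.50 kb from Atf3 (chr1:191167377-191167798), which encodes a stress-induced repressor of LPS genes, had 374 and 422 bases in WT LPS and none elsewhere. Inside Nfkb1, the gene of the NF-kB p50 precursor, one of its WT-only regions (chr3:135672365-135672685) had 321 and 260 bases and none elsewhere. These 3 sites were called in LPS-treated WT cells alone.

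Il1b, which encodes interleukin-1 beta, had WT-only regions 16.6 kb (chr2:129387771-129388024; 224 and 246 bases) and 39.3 kb (chr2:129410425-129410634; 210 and 179 bases) from the gene, again called in no untreated library. A region inside Tnf within 1 kb of a start site (chr17:35200384-35201213) was WT-only by the rule, with 172 and 415 bases, but all 4 untreated libraries called it, with 334 and 652 bases in WT and 313 and 685 in KO. Its neighbour (chr17:35201436-35202249), also within 1 kb of a start site, was called in all 4 LPS libraries, with 794 and 644 bases in WT and 423 and 548 in KO. Open chromatin at Tnf was thus called in LPS-treated KO cells as well.

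Late genes with WT-only regions were Acod1, Ccl5, Cd86, Edn1 and Marco. Inside Acod1, which makes the antimicrobial metabolite itaconate, a region (chr14:103053480-103054087) had 603 and 402 bases in WT LPS and no peak in the other 6 libraries. A region 66.1 kb from Edn1 (chr13:42374107-42374601), the gene of the vasoconstrictor endothelin-1, had 495 and 448 bases, and one 19.1 kb from Marco (chr1:120524157-120524524), a scavenger receptor, had 348 and 300. Inside Ccl5, a chemokine gene, the peaks were 170 and 198 bases, near the lower limit of the lists.

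Of the KO-only regions of response genes, 3 of the 5 early and 2 of the 3 late ones were called in all 4 untreated libraries. Among all KO-only regions the share was 38.6%, and these counts are too small to tell from it. Inside Il10, the gene of an anti-inflammatory cytokine, a region (chr1:131019493-131020036) had 317 and 372 bases in KO LPS, none in WT LPS, and 436 to 493 bases in the 4 untreated libraries. A region 0.195 kb from Nfkbia (chr12:55488588-55489213), which encodes the NF-kB inhibitor IkB-alpha, had 326 and 348 bases in KO LPS and 498 to 626 in all 4 untreated libraries. A region 79.8 kb from Il12a (chr3:68778390-68778914), a subunit of interleukin-12, had 381 and 389 bases in KO LPS and 408 to 512 untreated. Peaks present in untreated cells of both genotypes were in these cases called after LPS in KO cells and not in WT cells. Il12b, the other interleukin-12 subunit, had a KO-only region 11.0 kb away (chr11:44425673-44426732), with 410 and 413 bases, called in 3 of 4 untreated libraries.

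The genes linked to NFAT5 in earlier work were read as a group, though such a list was drawn up knowing that link. Of 78 regions of 11 genes, 6 were WT-only (7.69%) and 3 KO-only (3.85%), at Il10, Il1b, Il6 and Tnf and at Il10, Il12a and Il12b. Nos2, which encodes inducible nitric oxide synthase, had 3 regions, all called in all 4 LPS libraries. Ptgs2, which encodes cyclooxygenase-2, had 7 of 10 regions and Ccl2, a monocyte chemokine, 7 of 8 called in all 4. Over all regions called with LPS the share was 55.4%. Neither gene had a WT-only or KO-only region. With 3.82% and 2.45% of all regions of these kinds, none among so few regions is near the background. At the start of Il6 (chr5:30012771-30013492) peaks were 721 and 704 bases in WT LPS and 570 and 549 in KO LPS, and 64.4 kb away (chr5:29948062-29948702) 584 and 540 against 335 and 362. The genotypes did not overlap at either site, and at the second the untreated libraries held 363 bases or less in WT and 398 and 413 in KO.

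Interferon genes had 6 WT-only (4.96%) and 2 KO-only (1.65%) regions of 121. Inside Rsad2, which encodes the antiviral enzyme viperin, a region (chr12:26441764-26442861) had 1098 and 452 bases in WT LPS and no peak in the other 6 libraries. Ifih1, Ddx58, Irf8 and Irf1 held the other WT-only regions, each with peaks in at least 1 untreated library. The KO-only region 16.5 kb from Irf1 (chr11:53794879-53795557), which encodes an interferon regulatory factor, had 552 and 511 bases in KO LPS and 570 to 671 untreated. The other lay 20.6 kb from Gbp5, an interferon-induced GTPase, with 186 and 480 bases.

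Osmotic stress genes, the classical NFAT5 targets among them, had 10 WT-only (9.09%, interval 4.45% to 16.1%) and 1 KO-only (0.909%) region of 110. The WT-only interval lies above the background, but this is 1 of 17 lists and it was chosen knowing the NFAT5 link. The genes were Hspa4l, Lcp1, Sgk1, Slc5a3, Slc6a12, Slc6a6 and Zfp36l1, and for KO-only Slc14a2, a urea transporter. Besides its start-site region, Slc6a12 had a second WT-only region inside the gene (chr6:121356309-121356833), with 292 and 525 bases in WT LPS, 182 in untreated WT replicate 2 and none in KO libraries. Near Slc5a3, the myo-inositol transporter, a region 38.6 kb away (chr16:92019153-92019751) had 414 and 238 bases in WT LPS, 564 and 485 in untreated WT, and 215 in 1 untreated KO library. Inside Slc6a6, the taurine transporter, the peaks were 227 and 229 bases (chr6:91726755-91727025), with none in the other 6 libraries.

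Slc6a12, Slc5a3 and Slc6a6 therefore each had a region called in WT LPS and not in KO LPS. The list's urea transporter, Slc14a2, had the reverse, and 9 of the list's 17 genes with a region had neither kind. Sgk1, a salt-responsive kinase, had a region 34.8 kb away (chr10:21847132-21847374) with 234 and 205 bases in WT LPS, 191 in untreated WT replicate 1 and none in the KO libraries. Lcp1, an actin bundler of leukocytes, had 2 WT-only regions, the wider (chr14:75149511-75150060) with 542 and 308 bases and neither called in an untreated library. Hspa4l, an osmotically induced chaperone, had 368 and 308 bases in WT LPS (chr3:40794037-40794553) but 353 to 477 bases in all 4 untreated libraries. Zfp36l1, an RNA-decay factor, had a region 97.4 kb away called in all 4 untreated libraries and one 53.1 kb away (chr12:80054382-80054629) called in all 4 WT and in no KO library, with 181, 203, 211 and 196 bases. Of the list's regions within 25 kb of the gene, 6 of 80 were WT-only (7.50%), against 3.85% of all regions within 25 kb of a gene. No interval was taken for this smaller count, so whether it clears that background was not tested.

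**Figure D2:**
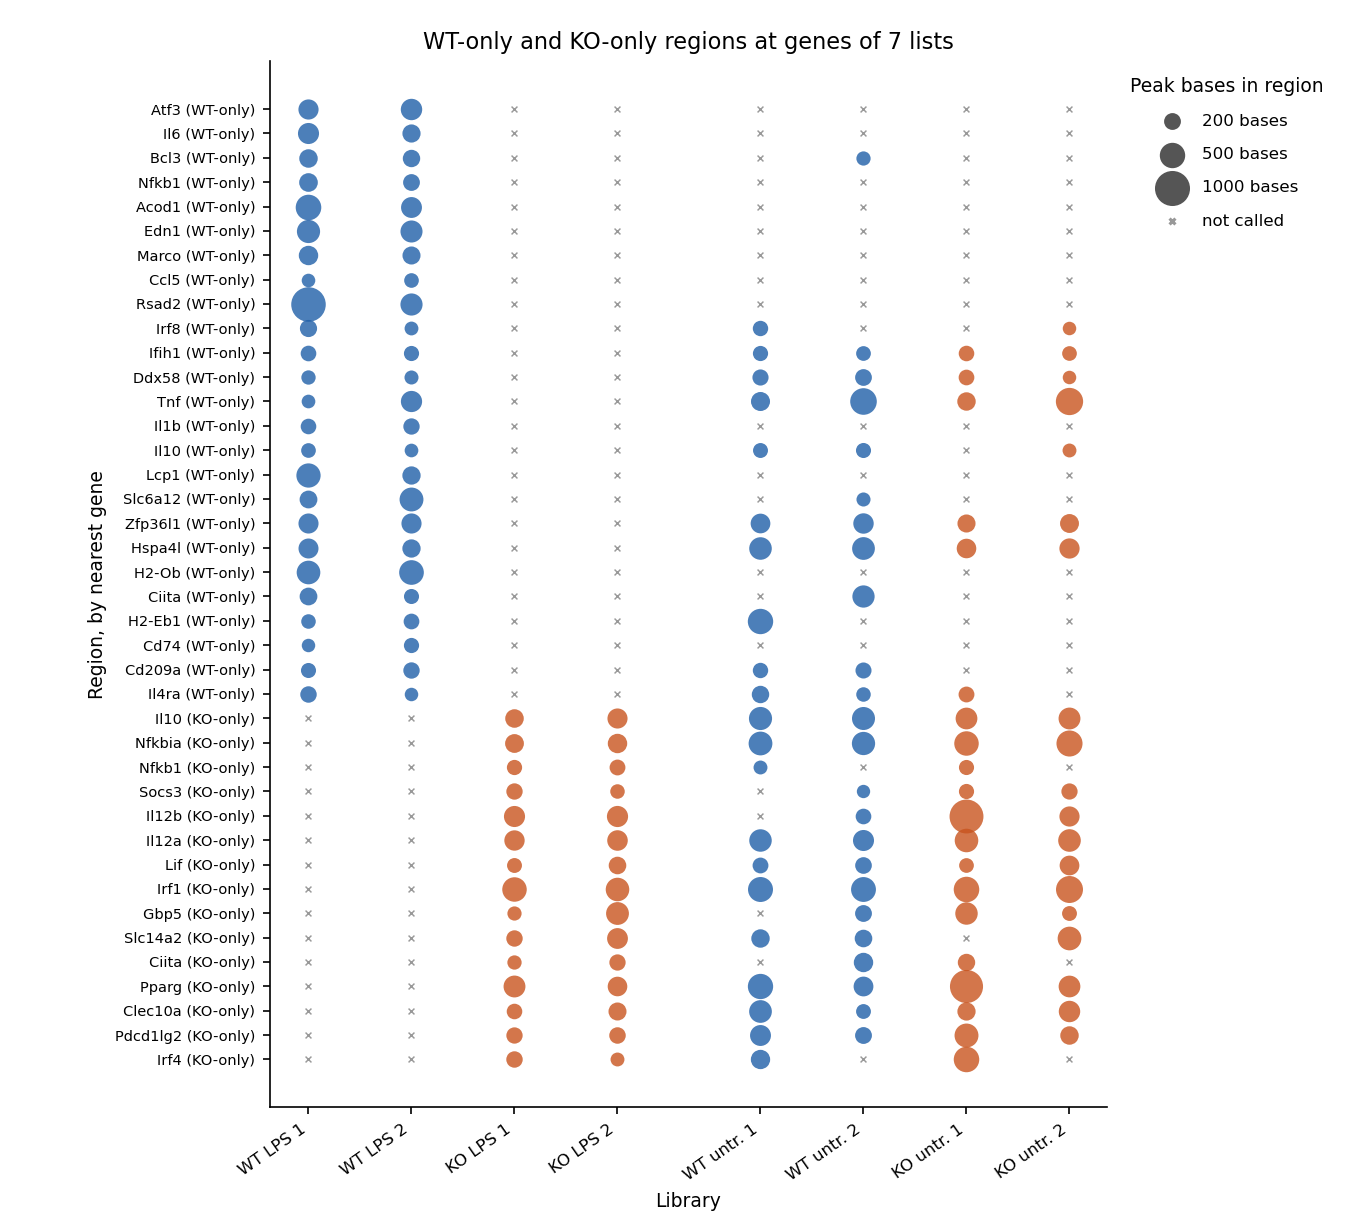
Peak bases (dot area) of WT-only and KO-only regions at genes of 7 lists, 1 row per region and 1 column per library; crosses mark no call. The rule fixes the 4 columns of LPS libraries. In the 4 untreated columns, KO-only rows such as Nfkbia, Irf1, Pparg and Il10 mostly had peaks before LPS, while the WT-only rows Il6, Atf3, Acod1 and Rsad2 had none. These rows are examples. Over the genes of all 17 lists, 37 of 72 WT-only regions were called in no untreated library, and 19 of 30 KO-only regions in all 4.

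MHC class II genes present antigen to CD4 T cells. Of their 36 regions 6 were WT-only (16.7%, interval 6.37% to 32.8%) and 1 KO-only (2.78%). The interval lies above the background, but the list was chosen knowing the NFAT5 link and 3 of the 6 regions had a peak of at most 175 bases. Ciita had 1 region of each kind. The WT-only one (chr16:10489242-10489712) had 290 and 209 bases in WT LPS and 456 in untreated WT replicate 2. The KO-only one (chr16:10494959-10495305) had 188 and 244 bases in KO LPS and was called in 1 untreated library of each genotype.

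Of 9 Ciita regions 4 were called in all 4 LPS libraries (55.4% of all LPS regions were), with log2 width differences from -0.27 to 0.42. Near H2-Ob, the beta chain of a peptide-loading regulator, a region (chr17:34249781-34250459) had 515 and 561 bases in WT LPS and none in the other 6 libraries, and a second, with 229 and 175 bases, was called in all 4 untreated libraries. In a region 0.431 kb from H2-Eb1, a class II beta chain (chr17:34304827-34305435), the peaks were 195 and 228 bases, with 593 in untreated WT replicate 1 only. Cd74, the invariant chain, had 2, with 167 and 213 bases and with 156 and 157 bases. The second was called in all 4 untreated libraries, at 302 to 417 bases.

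TLR4 signalling genes were at the background, with 5 WT-only (3.42%) and 1 KO-only (0.685%) of 146 regions. Besides Myd88, the WT-only regions lay at Irak3 (chr10:120177261-120177681; 421 and 206 bases), a brake on receptor signalling, at Tab2, an adaptor of the TAK1 kinase, and at Tbk1, an interferon-inducing kinase. The Irak3 and Tab2 regions were called in no untreated library. Map3k7, which encodes TAK1, had the KO-only one, with 173 and 318 bases and peaks in all 4 untreated libraries.

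Macrophage identity genes gave 9 WT-only (3.98%) and 3 KO-only (1.33%) of 226 regions. Siglec1, the sialoadhesin of macrophages, had 3 WT-only regions, the widest (chr2:131096291-131096728) with 437 and 414 bases, and none of them was called in an untreated library. A region near C1qb (chr4:136878227-136878990), a complement subunit, had 504 and 624 bases in WT LPS, 310 and 609 in untreated WT, and none in the 4 KO libraries. KO-only regions lay inside Cd36, a fatty acid and lipoprotein receptor (634 and 223 bases; 569 to 868 untreated), Mertk, a receptor for apoptotic cells (202 and 247), and Adgre1, which encodes F4/80 (215 and 217). Adgre1 also had a WT-only region.

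Alternative activation genes were the list with more KO-only than WT-only regions among the 10 lists on macrophage function, 5 (4.90%, interval 1.61% to 11.1%) against 2 (1.96%) of 102. The interval includes the background. The KO-only regions lay at Pparg, Clec10a, Irf4, Mrc1 and Pdcd1lg2. Inside Pparg, a lipid-sensing nuclear receptor, the peaks were 441 and 354 bases in KO LPS and 361 to 1009 in all 4 untreated libraries (chr6:115469372-115470380). At Clec10a, a lectin receptor, they were 223 and 299, and at Pdcd1lg2, which encodes PD-L2, 245 and 251, each with peaks in all 4 untreated libraries. The WT-only regions lay near Cd209a, a lectin, called in all 4 WT and no KO library (209, 247, 218 and 237 bases), and near Il4ra, the interleukin-4 receptor alpha chain. Cholesterol and lipid genes had 6 WT-only (4.69%) and 5 KO-only (3.91%) of 128, at many of the same genes: Insig1, Insig2, Lpl and Mylip had 1 of each.

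Markers of other cell types that a marrow culture could hold had few regions. T cell markers had 2 WT-only and 1 KO-only of 18 regions, B cell markers 0 and 1 of 16, neutrophil markers 0 and 0 of 21, dendritic cell markers 1 and 2 of 49, erythroid markers 0 and 0 of 9, fibroblast or stroma markers 2 and 1 of 44, and mast cell or basophil markers 2 and 0 of 18. Of 30 macrophage identity genes 29 had a region called after LPS, against 7 of 12 T cell, 5 of 10 B cell and 5 of 10 erythroid markers. Dendritic cell markers had 10 of 10, neutrophil markers 10 of 12, fibroblast or stroma markers 10 of 12 and mast cell or basophil markers 6 of 10. Having a region thus did not set macrophage genes apart from all other lists. Peak lists do not give the share of such cells, and their part in the results was not tested.

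**Figure D3:**
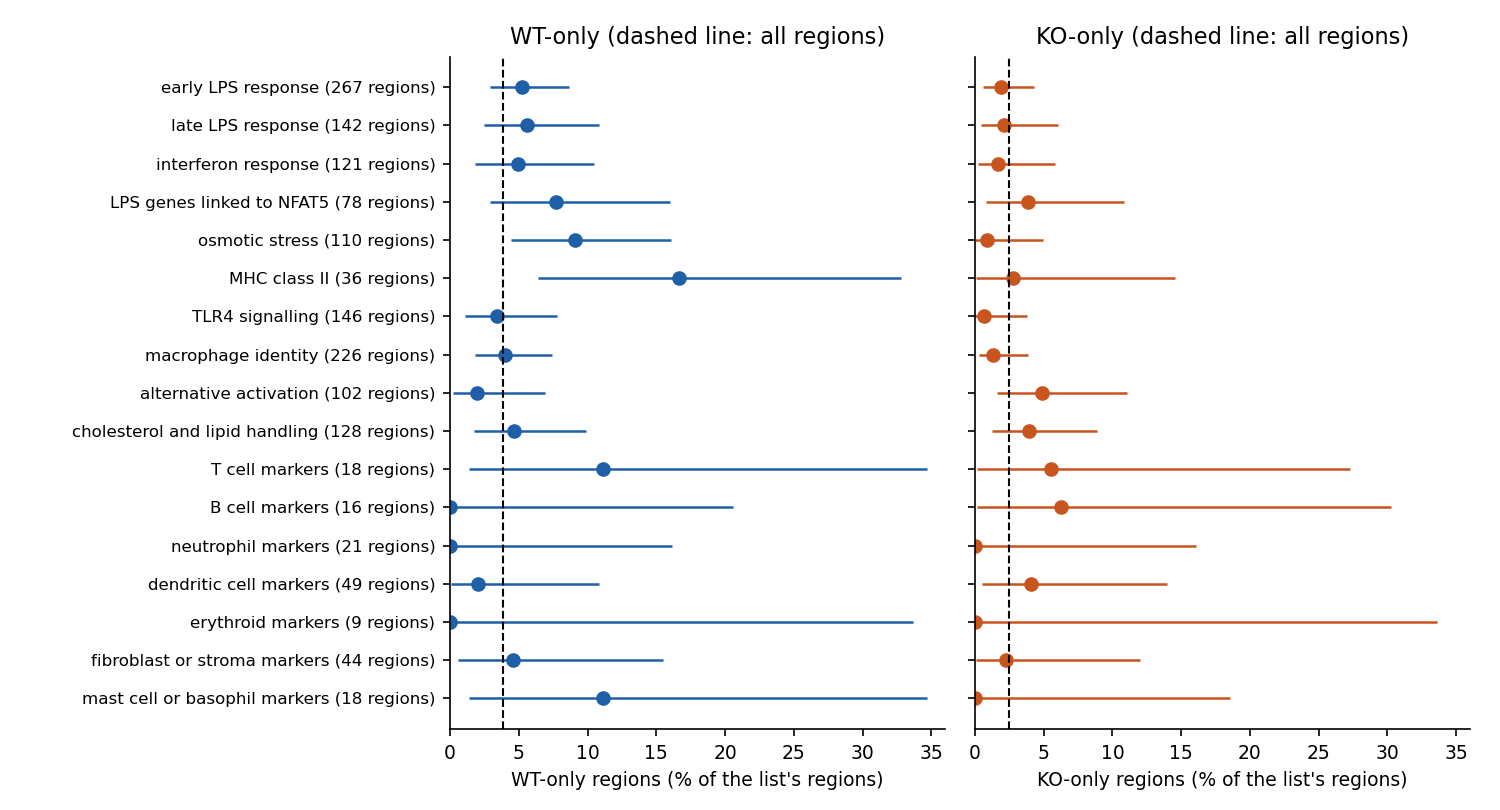
Share of each list's regions (%) that were WT-only (left) or KO-only (right), with 95% exact binomial intervals; dashed lines give the background over all 72316 regions. Of 17 lists, only MHC class II (16.7%) and osmotic stress (9.09%) have intervals clear of the dashed line, both for WT-only.

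The widest WT-only regions, by mean rank of width in the 2 WT lists, lay mainly inside long genes. The first was in Thada (chr17:84459679-84461628), with 1404 and 1950 bases in WT LPS, and peaks of 1010, 180 and 1448 bases in 3 untreated libraries. Those in Syne1 (763 and 1609 bases), which encodes a nuclear envelope protein, and Ptprt (1269 and 753), a receptor phosphatase, were called in no other library. At the start of Uaca the peaks were 881 and 857 bases in WT LPS, 807 and 866 in untreated WT and 185 in 1 untreated KO library. The others were at Osbpl1a, Auts2, Cldn14, Cbln4, Saxo1 and Riiad1.

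Among the 10 widest KO-only regions several were called in KO libraries whatever the treatment. Inside Ryr2 (chr13:12027526-12028590), a calcium release channel, the peaks were 917 and 848 bases in KO LPS, 897 and 1065 in untreated KO and absent from the 4 WT libraries. Near Zfp950 they were 949 and 964, then 915 and 840. Near Olfr1223, an olfactory receptor, they were 1021 and 716, then 693 and 856. Kcnab1 (1076 and 611; 1076 and 1360) and Cdh10 (561 and 987; 315 and 758) showed the same pattern, so 5 of the 10 separated the genotypes in all 8 libraries. The remaining ones were near Ids, called in KO LPS at 1240 bases each and in 1 untreated KO library, Pcdh1, Klhl14, Mzt1 and Tox.

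Regions of a kind sometimes lay together. Slco4c1, an organic anion transporter, had 6 KO-only regions of its 8 called after LPS, between chr1:96730091 and chr1:96847170. Their widths ran from 197 to 693 bases, and only 1 was called in no untreated library. The window from 12 Mb on chromosome 5 held 9 KO-only regions of 24. Cntnap2 had 6 of 37, and Sgcd 5 of 13. For WT-only regions Rims2 led with 6 of 22, then Dlg2 (5 of 38), Foxp1 (5 of 49) and Plcb4 (5 of 35). Long genes hold more regions, and 2130 genes had at least 1 WT-only region.

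Peak width was then compared in the 40095 regions called in all 4 LPS libraries. The width of a region in a library was the number of its bases under that library's peaks. By limma on log2 widths with Benjamini-Hochberg adjustment, 0 regions (0%) passed an adjusted p of 0.05; the smallest was 0.397. An unadjusted p under 0.05 was reached by 3713 (9.26%). On simulated data of this comparison the fit recovered 0 of 100 regions changed 2-fold and 29 of 100 changed 4-fold, with 0 false calls. The simulation took each region's observed spread between libraries as its true spread, so these counts hold for that setting only. In it most changes were missed, so 0 calls do not show that widths were equal. The values below are descriptions.

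KO peaks were slightly narrower in the median region, with a median log2 difference of -0.04 (KO minus WT) and 57.6% of regions narrower in KO. With each library centred on its own median the difference was 0.01 and 47.8% were narrower, so the direction rests on the scale. The 2 widths of one genotype did not overlap those of the other in 40.5% of regions, with 25.4% narrower and 15.1% wider in KO. At least 2-fold differences numbered 428 narrower and 376 wider.

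Regions called only after LPS departed further. The 959 regions called in all 4 LPS libraries and in no untreated library had median widths of 362 and 335 bases in WT and 305 and 276 in KO. Both KO medians were below both WT medians. The median log2 difference was -0.20, and 70.9% of these regions were narrower in KO. It was -0.14 after centring, and ran from -0.14 to -0.25 when a library was left out. In every one of 8 width classes these regions had a lower median than the others, for example -0.31 against -0.05 at 400 to 500 bases (148 and 6414 regions). The 2 widest classes held only 22 and 3 of the 959. Regions called in all 4 untreated libraries, 36009 in number, stood at -0.04, with medians of 537 and 543 bases in WT and 530 and 517 in KO.

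Regions within 1 kb of a start site had a median of -0.08 and 67.1% narrower (729 and 744 bases in WT, 693 and 680 in KO), while those over 100 kb from a gene stood at 0.01. After centring the start-site median was -0.02, with 54.9% narrower. By list the median was -0.14 for interferon genes (71 regions, 71.8% narrower), -0.11 for osmotic stress (65 regions, 72.3%), -0.09 for early (172 regions, 65.7%) and -0.07 for late LPS genes (77 regions, 68.8%). TLR4 signalling and cholesterol genes stood at 0.00, with 49.5% and 49.4% narrower. Some marker lists of other cell types were as low: dendritic cell markers at -0.13 (23 regions, 73.9% narrower) and fibroblast or stroma markers at -0.12 (22 regions, 59.1%). T cell, B cell, neutrophil and erythroid markers went the other way, at 0.16, 0.18, 0.06 and 0.17 (10, 8, 10 and 3 regions). Low medians were thus not particular to the response and osmotic lists. After centring the shares narrower were 64.8% for interferon, 60% for osmotic stress and 54.1% for early LPS genes, against 47.8% of all regions. Without WT replicate 1 the interferon median was -0.08 and without WT replicate 2 it was -0.21, so its size depends on the library. Without KO replicate 2 the medians of early LPS and osmotic stress genes were both -0.04, against -0.03 for all regions.

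**Figure D4:**
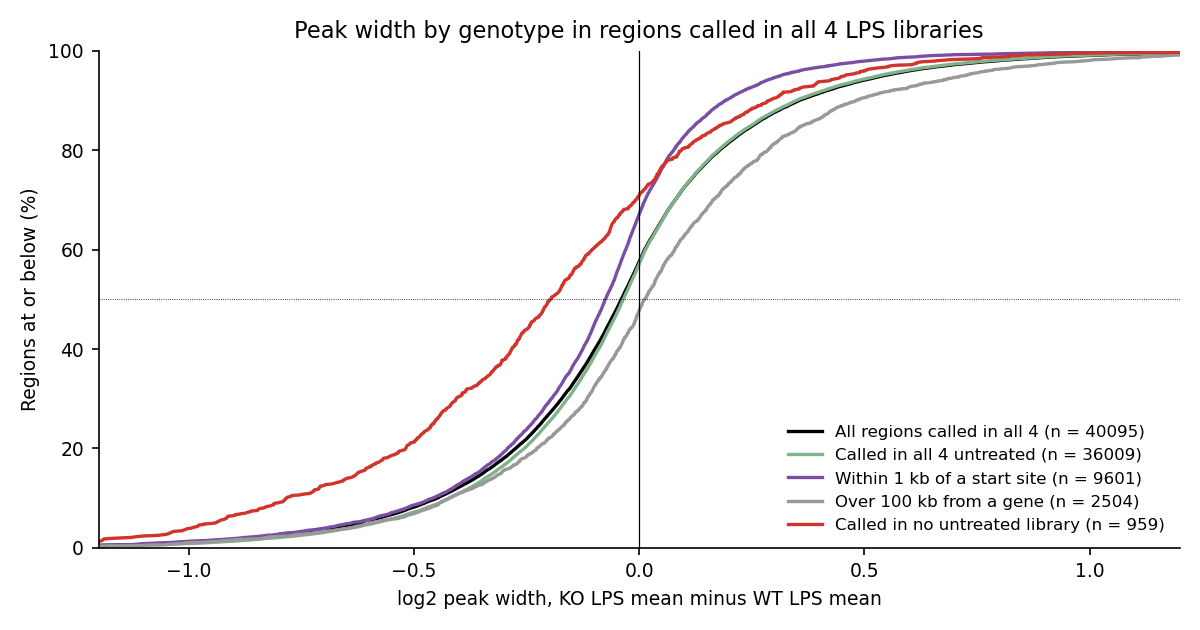
Cumulative share of regions (%) by log2 width difference (KO LPS mean minus WT LPS mean) for regions called in all 4 LPS libraries and 4 of their classes. The curve of the 959 regions called in no untreated library lies to the left, crossing 50% at -0.20, while all regions cross at -0.04.

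At named LPS genes the following widths did not overlap between genotypes, and none passed the test by limma with Benjamini-Hochberg adjustment. The start-site region of Ddx58 (chr4:40238752-40239982), which encodes the RNA sensor RIG-I, had 918 and 971 bases in WT LPS and 248 and 172 in KO LPS. The log2 difference was -2.19 (SE 0.24, adjusted p = 0.397), the largest narrower difference named. Untreated libraries held 215 and 233 bases in WT and 0 and 167 in KO, so the KO LPS peaks were about as wide as untreated ones. At the start of Cxcl10 (chr5:92348344-92349422), an interferon-induced chemokine, the peaks were 1043 and 785 against 505 and 441 bases, a log2 difference of -0.94 (SE 0.19), with 386 to 711 untreated.

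Inside Il23a (chr10:128298061-128299015), the p19 subunit of interleukin-23, the widths were 884 and 790 in WT LPS against 444 and 443 in KO LPS, with 407 to 590 untreated. A region 12.6 kb from Dusp2, a phosphatase of MAP kinases, had 480 and 851 against 366 and 320 bases and was called in no untreated library. In Zbp1, a nucleic acid sensor, they were 1867 and 1872 against 1197 and 813. At each of these genes both WT LPS peaks were wider than both KO LPS peaks, as in 25.4% of all regions. Among osmotic stress genes S100a4, a calcium-binding protein, had 789 and 766 against 334 and 432 bases within 1 kb of a start site, and Lcp1 had 963 and 832 against 490 and 472. At the start of Cx3cr1, the fractalkine receptor, the widths were 744 and 799 against 175 and 378.

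Some response genes went the other way. A region 26.6 kb from Il12b (chr11:44372400-44373431) had 416 and 348 bases in WT LPS and 749 and 822 in KO LPS, a log2 difference of 1.04 (SE 0.16; adjusted p = 0.397 by limma). It was called in no untreated library, so this is a site called only after LPS with the wider peaks in KO cells. A region near Zfp36, the RNA-decay factor tristetraprolin, had 498 and 349 against 861 and 624 bases, and one near Ccl7, a monocyte chemokine, 521 and 610 against 833 and 837. A region 78.8 kb from Abca1, the cholesterol exporter, had 418 and 486 against 1233 and 704.

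Apart from Ddx58, the largest width differences named among regions assigned to a gene were elsewhere in the genome. A region over 100 kb from a gene (chr9:113025963-113027397) had a larger one, with 234 and 180 bases in WT LPS against 1435 and 1278 in KO LPS (log2 difference 2.72), and 329 and 380 against 1216 and 1060 untreated. Narrower in KO after Ddx58 came Gkap1 (1071 and 814 against 169 and 253 bases), Nrp1 (1174 and 750 against 204 and 246), Hace1 (2355 and 2165 against 562 and 656) and Ddr1 (860 and 706 against 213 and 229). The region 45.7 kb from Nrp1, a semaphorin and VEGF co-receptor, had 273 to 332 bases in the 3 untreated libraries that called it. Wider in KO were Sgcd (181 and 175 against 851 and 857), Pak1 (488 and 204 against 1526 and 973), Rabep1 (211 and 325 against 1095 and 914) and Sema3a (192 and 244 against 772 and 833). At Sgcd and Sema3a the untreated KO libraries also held wide peaks, 808 and 790 bases and 577 and 641.

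Fitting all 8 libraries together, which borrows the spread of the untreated groups, gave 12 of 36009 regions (0.0333%) at an adjusted p under 0.05 for KO LPS against WT LPS, 6 wider and 6 narrower. Adjusted p-values lay between 0.0454 and 0.0491, close to the threshold. Wider in KO was a region 0.395 kb from Apobec1 (chr6:122575764-122577396), an RNA-editing deaminase, with 855 and 824 bases in WT LPS and 1502 and 1519 in KO LPS; untreated libraries held 1492 to 1565. Capzb, an actin capping protein (157 and 163 against 671 and 577), and Ivns1abp (695 and 645 against 1296 and 1343) were also wider in KO. In these 3, WT LPS peaks were narrower than any untreated peak. At Capzb and Ivns1abp the KO LPS peaks were so too, with untreated peaks of 915 to 1191 and 1564 to 1701 bases.

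Narrower in KO in the same fit were Cars2, a mitochondrial tRNA synthetase (1110 and 1037 against 471 and 512), Pstpip1, a cytoskeletal adaptor (801 and 731 against 297 and 277), Ncoa1, a nuclear receptor coactivator (737 and 668 against 195 and 182), Lipg, endothelial lipase (1440 and 1244 against 549 and 519), Aqp3, a water and glycerol channel (627 and 741 against 228 and 243), and Tnfrsf26 (773 and 706 against 243 and 260). At Ncoa1 (chr12:4476805-4477691) untreated cells differed too, with 712 and 833 bases in WT and 276 and 273 in KO. At Tnfrsf26 the untreated libraries went the other way, with 261 and 270 bases in WT and 743 and 748 in KO. At Cars2 and Aqp3 all 4 untreated libraries held wide peaks, 1100 to 1159 and 796 to 894 bases. In that fit the change of the genotype difference with LPS (an interaction term) passed for 0 regions, with 2331 at an unadjusted p under 0.05. The smallest adjusted p by limma was 0.0778, the value of the Tnfrsf26 region.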

How the data were processed

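For each of the 8 libraries the authors deposited peak positions alone (chromosome, start, end; build GRCm38, mm10), without score, height or count. The tools named in the submitters' processing notes were MACS2 2.1.1, Bowtie2 2.3.0, bcl2fastq 2.17.1.14 and Picard; thresholds, duplicate removal and any shift of cut positions were not stated there. Library depth is therefore unknown, and a region without a peak may still be open below the calling threshold.

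Starts were read as counted from 0 and are printed from 1. Peaks of 21 chromosomes were merged at an overlap of 1 base. Each region took the closest gene within 100 kb among 21883 coding for protein in RefSeq (GRCm38.p6); start sites on chromosome 18 were not used, so shares near a start leave its 2371 regions out. Of the 305 list entries, 2 matched no gene.

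Widths were compared with limma 3.58.1 (R 4.3.3; log2 bases, trend, Benjamini-Hochberg, threshold 0.05), tested on simulated data. Single values used the exact permutation test, two-sided, in Python 3.11.15. The p-values measure the spread between 2 libraries a group, whose origin from separate mice is not stated. Same-numbered WT and KO LPS libraries did not deviate together in peak width (r = 0.02 across 40095 regions), so no block was used, although peak counts on X and Y went with the number.

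Named regions were the 10 widest of each kind by mean rank, with 1 region a gene, and at most 4 genes of each list in each direction; for widths the 10 largest non-overlapping log2 differences at a mean width of at least 500 bases, up to 2 per list, all among regions assigned to a gene; and 9 genes in any case. Other list regions, Slco4c1, the Wwp2 region and the regions of the fit of all 8 libraries were chosen after their values were seen. The regions and lists were chosen with earlier results of these data known. Alternatives tried were other merging, overlap, list length, peak width and centring, and leaving out each library.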

Additional observations from a re-analysis of the deposited data

How the results depend on the processing

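The peak lists carry no depth, so a missing call cannot be told from a shallow library, and 2 libraries a group cannot reach an exact p below 0.333. Keeping the widest 27013 peaks of each list left 1246 WT-only and 1180 KO-only regions. Leaving out 1 library at a time gave 4841 to 7292 WT-only and 3066 to 5716 KO-only regions, because 1 list then decides a direction. In those fits the difference between untreated KO and WT libraries was -8.87 to -11.1 points for WT-only and 5.42 to 7.57 points for KO-only regions. Without peaks under 174 bases the counts were 2272 and 2009, an alternative chosen after the data were seen. The width test called 0 regions under centring, the widest single peak, a minimum of 300 bases, no trend and each library left out, and 12 with all 8 libraries. With a replicate block it called 0. Centring turned the median over all regions to 0.012, and the widest single peak turned the Hspa4l start-site difference from 0.26 to -0.26. Of the 53 named WT-only regions, 44 kept their call at 50% coverage and 15 among the widest peaks; of 37 KO-only regions 22 and 12 did. List shares within 25 kb stayed inside the intervals of the 100 kb shares. Whether they clear the 25 kb background was not tested.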

Other observations

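Peak counts on X and Y followed the replicate number more than the genotype. X held 1759 and 1703 peaks in replicates 1 and 1502 and 1497 in replicates 2 of WT and KO LPS, and 1763 and 1710 against 1500 and 1601 in untreated cells. Y held 43 and 33 against 59 and 78, and 33 and 38 against 59 and 96.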
